A study of Mus musculus with 7 samples.

Results

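The genes described are 31 members of the route by which muscle takes up fatty acids, releases them from stored fat and oxidises them in mitochondria. They were chosen as a named list, and every probe set annotated to exactly 1 of these symbols was taken. This gave 52 probe sets for 29 of the 31 genes, out of 18193 genes measured in the series. Acsl1 and Cpt1b had no probe set with 1 symbol, and their expression was not analysed here. The muscle was quadriceps femoris of mice that overexpress a mutant Twinkle, the helicase that unwinds mitochondrial DNA, and of wild-type mice. The transgenic line is a model of progressive external ophthalmoplegia, a mitochondrial muscle disease. There were 3 mutant mice, aged 24, 24 and 21 months for replicates 1 to 3, and 4 wild-type mice, aged 26, 24, 21 and 23 months for replicates 1 to 4, with 1 Affymetrix array per sample. The labels name no other allele or agent, and the transgene's promoter, strain and sex are not stated there.

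Long-chain fatty acids reach muscle fibres after lipoprotein lipase cuts them from circulating triglyceride, and they enter through carriers such as CD36 and the fatty acid transport proteins. Inside the fibre they are joined to coenzyme A, passed across the mitochondrial membranes as carnitine esters and shortened by the repeated steps of beta-oxidation. Electrons from the acyl-CoA dehydrogenases pass through the electron transfer flavoprotein and its dehydrogenase into the respiratory chain. Oxidative muscle fibres are rich in these enzymes, and fat cells share the uptake and lipolysis genes.

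Values are on the log2 scale and centred, each probe set having a median of 0 over its 7 arrays, so they show differences between arrays and no levels. The free-text descriptions name cerebellum, whereas titles, source and tissue entries name muscle or quadriceps. Of the fibre markers that any muscle should hold, 10 of 10 lay in the brightest class that could be recovered from the number spacing (8 to 16 on the log2 scale), against 1 of 9 measured cerebellum markers. Twnk, the gene of the transgene, differed by 0.04 ± 0.18 (SE), and the sources used here do not say whether its 1 probe set detects the transgene. Over all 18193 genes, mutant replicate 2 and wild-type replicates 1 and 4 correlated with each other (r from 0.36 to 0.50) and lay below 0 against the other 4 arrays (r from -0.49 to -0.19). Among the other 4, r ran from -0.05 (mutant replicate 3 with wild-type replicate 3) to 0.35 (mutant replicate 1 with wild-type replicate 3). No label or header explains this split. Slow fibre marker means were -2.61 and -1.97 in wild-type replicates 1 and 2 and between -0.19 and 0.78 in the other 5 arrays. Wild-type replicate 3 had the lowest muscle fibre marker mean (-0.51), the highest adipocyte marker mean (1.24) and the lowest 5 prime signal relative to 3 prime on the Gapdh control probes, a measure of RNA integrity, at -0.55 against at least -0.040 elsewhere. The same measure on the beta-actin probes was not low there, at 0.12 beside -0.14 to 0.12 over all arrays. In whole muscle, fewer cells of a type and less RNA per cell cannot be told apart.

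None of the 29 measured fatty acid genes differed between mutant and wild-type muscle beyond the spread between arrays. Of them, 13 had a positive and 16 a negative difference (mutant minus wild type), with a median of -0.0094 on the log2 scale beside -0.011 over all 18193 genes. The differences ran from -0.33 for Acsl5 to 0.25 for Cpt1a. In limma, with Benjamini-Hochberg adjustment over all genes, 0 members had an adjusted p under 0.05, and the share called over all genes was 0%. Before adjustment, 0 of 29 members and 1.37% of all genes had a p under 0.05. In 0 members did all mutant arrays lie above, or all below, the wild-type arrays, where the share over all genes was 0.846% above and 1.16% below.

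The intervals give the sizes of difference that the limma fit allows when the 7 arrays are taken as independent. Some are narrow because averaged probe sets ran opposite ways, as for Hadhb (SE 0.10, against 0.27 and 0.28 for its 2 averaged sets). The 95% interval of the limma estimate stayed within 1 log2 unit of 0 on both sides for 27 of 29 members and within 0.5 for 11. The other 2 were Acsl5 (-2.16 to 1.49) and Lipe (-1.37 to 1.49). The within-group SD had a median of 0.21 over the mutant and 0.38 over the wild-type arrays, and in 23 members the whole mutant range lay inside the wild-type range. The titles number each sample as a biological replicate.

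**Figure D1:**
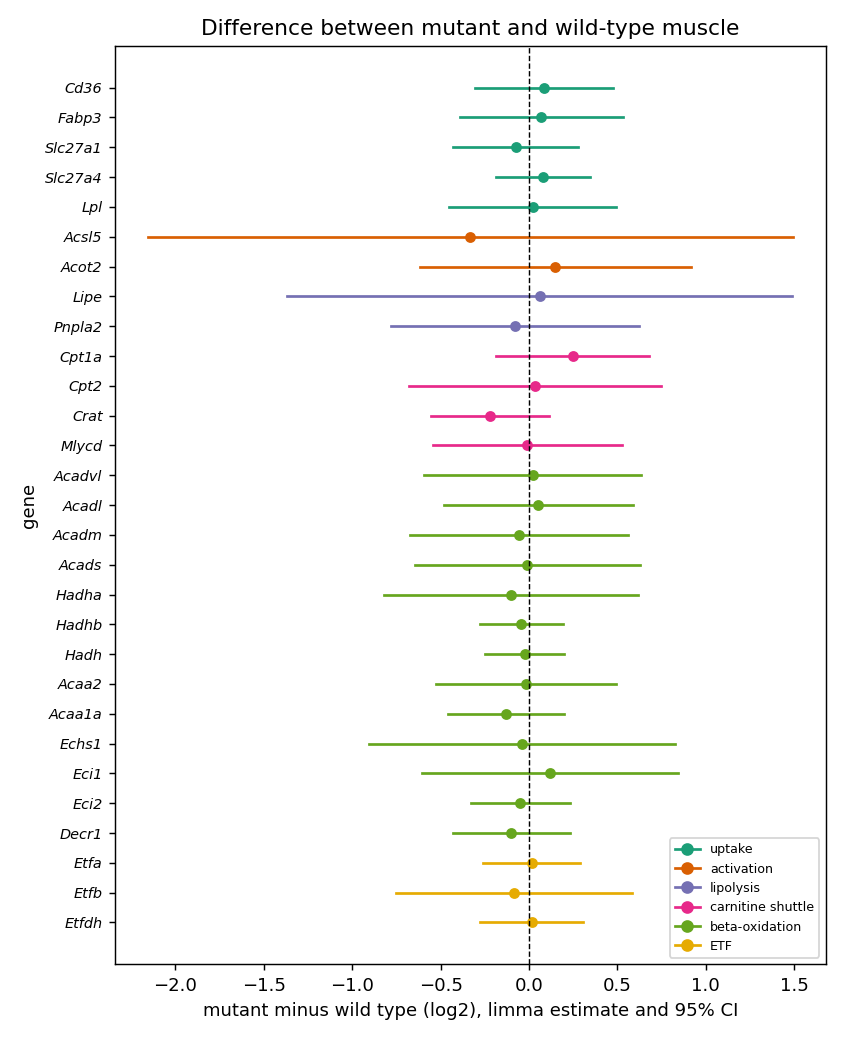
Mutant minus wild-type difference of each of the 29 fatty acid genes (horizontal axis, log2), with points for the limma estimate and bars for the 95% confidence interval, coloured by role (ETF, electron transfer flavoprotein). Every bar crosses 0, and the widest are those of Acsl5 and Lipe.

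The 5 uptake genes had a median difference of 0.07, with 4 positive and 1 negative, and 0 passed the test. Slc27a4, a fatty acid transport protein, measured 0.05, 0.00 and -0.02 in mutant replicates 1 to 3 and 0.00, -0.33, 0.08 and -0.02 in wild-type replicates 1 to 4. Only wild-type replicate 2 stood away from the others, and the difference was 0.08 ± 0.11 (SE). Cd36, the main fatty acid carrier of the muscle membrane, measured 0.04, 0.13 and -0.02 in mutant and -0.44, 0.00, 0.30 and 0.01 in wild-type muscle. Wild-type arrays held both its lowest and its highest value, and the difference was 0.08 ± 0.17 or 1.06-fold (95% interval 0.81 to 1.39). Slc27a1, a second transport protein, measured -0.06, 0.09 and -0.32 in mutant and -0.34, 0.14, 0.11 and -0.01 in wild-type muscle, and the groups overlapped (difference -0.07 ± 0.15). Fabp3, which binds fatty acids in the cytosol of muscle, differed by 0.07 ± 0.20. Lpl, the lipase that frees fatty acids at the vessel wall, differed by 0.02 ± 0.20, and its value in wild-type replicate 1, -0.62, was the lowest of this gene. The mean of the 8 markers of endothelial cells, which also hold Cd36, ran from 0.03 to 0.20 in mutant and from -0.36 to 0.07 in wild-type arrays, and their part in these values was not tested.

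Both measured genes of fatty acyl-CoA turnover varied more within the groups than between them. Acsl5, an acyl-CoA synthetase that activates fatty acids, measured 0.67, -0.13 and 0.00 in mutant and -0.51, 0.07, 2.83 and -0.35 in wild-type muscle. Its value in wild-type replicate 3 was over all others, and without that array the difference turned from -0.33 ± 0.78 to 0.44. Acot2, a mitochondrial thioesterase that splits acyl-CoA again, measured 1.10, -0.10 and 0.00 in mutant and 0.12, -0.02, 0.73 and -0.09 in wild-type muscle. Mutant replicate 1 was highest, and without it the difference turned from 0.15 ± 0.33 to -0.23. A dimmer Acot2 probe set differed by -0.19 ± 0.11. In mutant replicate 1 the 18S ribosomal RNA controls averaged 3.19, against -0.77 to 0.56 in the other 6 arrays, and their part in its Acot2 value was not tested.

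The lipases of stored fat, Lipe and Pnpla2, had differences of 0.06 ± 0.61 and -0.08 ± 0.30 and did not pass. Lipe, hormone-sensitive lipase, measured 0.55, -0.38 and 0.00 in mutant and -1.39, 0.95, 1.03 and -0.61 in wild-type muscle. The wild-type arrays spanned the full range, with replicates 2 and 3 high and replicates 1 and 4 low. Pnpla2, adipose triglyceride lipase, had the same arrays at its ends and measured 0.47, -0.17 and 0.00 in mutant and -0.41, 0.53, 0.73 and -0.14 in wild-type muscle. The mean of the 8 measured adipocyte markers was 0.24, -0.23 and -0.12 in mutant and -1.08, 0.74, 1.24 and -0.18 in wild-type arrays. Adipoq, the fat cell hormone adiponectin, was -1.66, 0.94, 1.30 and -0.57 in the wild-type arrays. Like Adipoq, the markers Cidec, Retn, Fabp4, Adig and Thrsp were lowest in wild-type replicate 1 and highest in wild-type replicate 3. Lep was instead highest in wild-type replicate 4 (0.68) and Car3 in mutant replicate 3 (0.27). Lipe, Pnpla2 and the adipocyte mean thus shared their 3 highest arrays (wild-type replicates 3 and 2 and mutant replicate 1). In each, wild-type replicate 1 was lowest. The leukocyte marker mean had the same 3 highest arrays (0.80, 0.07 and 0.30) and the same lowest (-0.57). Hadha, Echs1, Etfb and Acads shared them too. So did Acadvl, Acadl, Eci1, Etfa, Etfdh, Cpt2, Mlycd and Acsl5. The pattern was thus not particular to lipases or fat cell markers, and its share over all genes was not counted. The part of fat cells in the lipase values was not tested.

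The 4 measured genes of the carnitine shuttle had 2 positive and 2 negative differences with a median of 0.01, and held both the smallest p-values of the 29 members. Crat, carnitine acetyltransferase, which buffers acetyl-CoA as acetylcarnitine, measured -0.09, 0.09 and -0.12 in mutant and 0.13, 0.16, -0.06 and 0.51 in wild-type muscle. Its groups overlapped through wild-type replicate 3, and the difference was -0.22 ± 0.14 or 0.86-fold (limma unadjusted p = 0.16, adjusted p = 1.00). Its 3 probe sets were unequal. The set 1441919_x_at lay at -0.16, -0.17 and -0.24 in mutant and 0.30, 0.05, 0.00 and 0.57 in wild-type muscle, with no overlap, and differed by -0.42 ± 0.15. The sets 1417008_at and 1448544_at both differed by -0.03 (SE 0.17 and 0.14). The first of these 3 was the 1 of 52 member probe sets with no overlap and with an unadjusted p under 0.05, where 0.941% of all probe sets lay below without overlap and 1.79% had such a p.

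Cpt1a, the carnitine palmitoyltransferase isoform that is chiefly known from liver, had the highest difference of the list, 0.25 ± 0.18. It measured 0.00, 0.00 and 0.60 in mutant and -0.11, 0.21, 0.00 and -0.29 in wild-type muscle, so the difference came from mutant replicate 3. Without that array it was 0.05, and 2 dimmer probe sets differed by 0.06 and -0.03. Cpt2, which rebuilds acyl-CoA inside mitochondria, measured 0.16, -0.17 and 0.00 in mutant and -0.70, 0.06, 0.72 and -0.25 in wild-type muscle, where both ends of the range lay (difference 0.04 ± 0.30). Mlycd, which degrades the Cpt1 inhibitor malonyl-CoA, differed by -0.01 ± 0.23.

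Beta-oxidation was the largest group, with 13 enzymes, of which 3 had a positive and 10 a negative difference around a median of -0.04. The 4 members with the smallest p were Acaa1a, Decr1, Hadhb and Eci2. Acaa1a, the peroxisomal thiolase, measured -0.01, 0.05 and -0.18 in mutant and 0.13, -0.21, 0.08 and 0.34 in wild-type muscle, a difference of -0.13 ± 0.14. Its 2 probe sets ran opposite ways in the mutant arrays, at -0.30, 0.41 and -0.34 for 1456011_x_at and 0.28, -0.31 and -0.01 for 1456737_x_at. They differed by -0.20 ± 0.29 and -0.05 ± 0.14. Decr1, which handles the double bonds of unsaturated chains, measured -0.25, 0.01 and -0.19 in mutant and -0.36, 0.02, 0.17 and -0.01 in wild-type muscle (-0.10 ± 0.14). Eci2, an enoyl-CoA isomerase, measured 0.00, 0.17 and -0.20 in mutant and -0.13, 0.11, 0.18 and 0.00 in wild-type muscle (-0.05 ± 0.12). In all of these the groups overlapped.

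The acyl-CoA dehydrogenases, which take the first step for chains of falling length, differed by 0.02 ± 0.26 for Acadvl, 0.05 ± 0.23 for Acadl, -0.06 ± 0.26 for Acadm and -0.01 ± 0.27 for Acads. All of them were lowest in wild-type replicate 1, from -0.69 to -0.46, and highest in wild-type replicate 3, from 0.33 to 0.67. Echs1, the short-chain enoyl-CoA hydratase, was chosen after its values were seen for its wide range. It measured 0.12, -0.39 and 0.00 in mutant and -0.98, 0.51, 0.52 and -0.25 in wild-type muscle (-0.04 ± 0.37). Eci1, the other isomerase, had the same extreme arrays (-0.93 and 0.37) and differed by 0.12 ± 0.31. Hadh, the medium and short-chain hydroxyacyl-CoA dehydrogenase, and Acaa2, the mitochondrial thiolase, differed by -0.02 ± 0.10 and -0.02 ± 0.22.

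Hadha and Hadhb encode the subunits of the mitochondrial trifunctional protein and are transcribed away from each other from starts 272 bases apart. The stretch between them is shown because it serves as upstream sequence for both. Most of it, the 250 bases before the Hadhb start (RefSeq, GRCm38.p6, chr5:30155003-30155252, plus strand), holds neither a CCAAT box nor the nuclear receptor motif AGGTCA on either strand, so no base is in capitals.
Hadhb upstream: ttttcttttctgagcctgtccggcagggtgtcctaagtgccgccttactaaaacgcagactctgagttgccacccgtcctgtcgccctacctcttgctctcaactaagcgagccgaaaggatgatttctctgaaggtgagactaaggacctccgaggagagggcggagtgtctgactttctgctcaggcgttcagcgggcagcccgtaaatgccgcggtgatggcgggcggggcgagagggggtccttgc
Hadha measured 0.27, -0.48 and 0.00 in mutant and -0.55, 0.41, 0.55 and -0.27 in wild-type muscle. The Hadhb probe set 1426522_at had nearly the same order, with 0.16, -0.43 and 0.01 in mutant and -0.68, 0.00, 0.38 and -0.38 in wild-type muscle. The Hadhb set 1437172_x_at, in the same brightness class, ran the other way, with -0.39, 0.52 and 0.00 in mutant and 0.53, -0.20, -0.08 and 0.61 in wild-type muscle. The mean of these 2 Hadhb sets therefore hardly moved between arrays, from -0.11 to 0.15, and differed by -0.04 ± 0.10. The set 1437172_x_at was high in mutant replicate 2 and wild-type replicates 1 and 4, the 3 arrays that stood apart over all genes, and 1426522_at was low in them. Probe sets of 1 gene also differed in the sign of the mutant difference in 10 of the 17 members with more than 1 set.

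**Figure D2:**
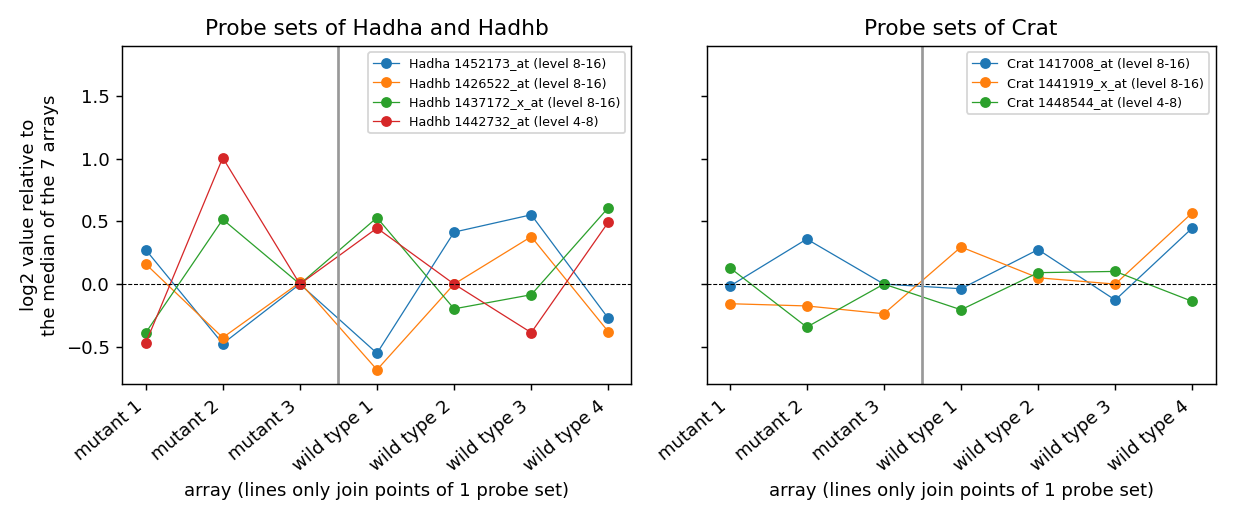
Log2 values of the probe sets of Hadha and Hadhb (left) and of Crat (right) on the 7 arrays (horizontal axis), centred on each set's median, with the brightness class in the key. Hadhb 1426522_at follows Hadha, 1437172_x_at runs against both, and of the Crat sets only 1441919_x_at has all mutant arrays below all wild-type arrays.

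The electron transfer flavoprotein genes differed by 0.02 ± 0.12 for Etfa, -0.09 ± 0.29 for Etfb and 0.02 ± 0.12 for Etfdh, and 0 of 3 passed. Etfb, the beta subunit, measured 0.03, -0.49 and 0.00 in mutant and -0.69, 0.31, 0.41 and -0.30 in wild-type muscle. Etfa, the alpha subunit, had a narrower range, with 0.01, -0.07 and 0.00 in mutant and -0.31, 0.04, 0.12 and 0.00 in wild-type muscle. In both, wild-type replicate 1 was lowest and wild-type replicate 3 highest.

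Because many measured members shared their extreme arrays, the 250 bases before each start were searched on both strands. The search covered 26 members with a RefSeq entry, among them Acsl1, which was not measured. The direct repeat 1 element, bound by PPAR with RXR, was in 0 of 30 member windows and in 0.0335% of 32851 windows of all genes. The estrogen-related receptor element TCAAGGTCA was likewise in 0 of 30, against 0.387% of all windows. Both are so rare over all windows that 0 of 30 cannot show a lack. Inexact or more distant elements were not searched. The shorter motif AGGTCA, which lies within both, was in the windows of 5 members (Acadm, Acadvl, Cd36, Cpt1a and Echs1), against 14.0% of all windows. The NRF-1 palindrome was in that of Etfdh alone among members, against 0.782% of all windows. The stretches of Acadvl (chr11:70015429-70015548, minus strand) and Etfdh (chr3:79628768-79628917, minus strand) are shown up to the base before the start as an example of each, with the match in capitals. The CCAAT box was in 14 of 30 member windows, those of 13 members, against 33.8% of all windows. The TATA box (TATAAA) was in 0 of 30, against 12.4% of all windows. All these matches are letters in the window and were not measured as binding.
Acadvl upstream: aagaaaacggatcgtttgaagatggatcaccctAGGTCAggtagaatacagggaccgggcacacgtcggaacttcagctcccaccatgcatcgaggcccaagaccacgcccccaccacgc
Etfdh upstream: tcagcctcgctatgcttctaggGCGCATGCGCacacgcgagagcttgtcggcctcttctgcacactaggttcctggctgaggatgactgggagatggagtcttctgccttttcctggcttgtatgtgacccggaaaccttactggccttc

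The arrays differed more than the genotypes. Wild-type replicate 1 was the lowest array in 21 of the 29 members, against 14.7% of all genes, and wild-type replicate 3 the highest in 23, against 24.7% of all genes. The median member lay at -0.45 in wild-type replicate 1, 0.08 in replicate 2, 0.30 in replicate 3 and -0.08 in replicate 4. In the mutant arrays it lay at 0.08, -0.07 and 0.00 for replicates 1 to 3. Both extremes were thus wild-type, with the mutant arrays between them. Wild-type replicate 1 was below every mutant array in 22 members and replicate 3 above every mutant array in 26, where these shares over all genes were 22.1% and 31.4%.

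**Figure D3:**
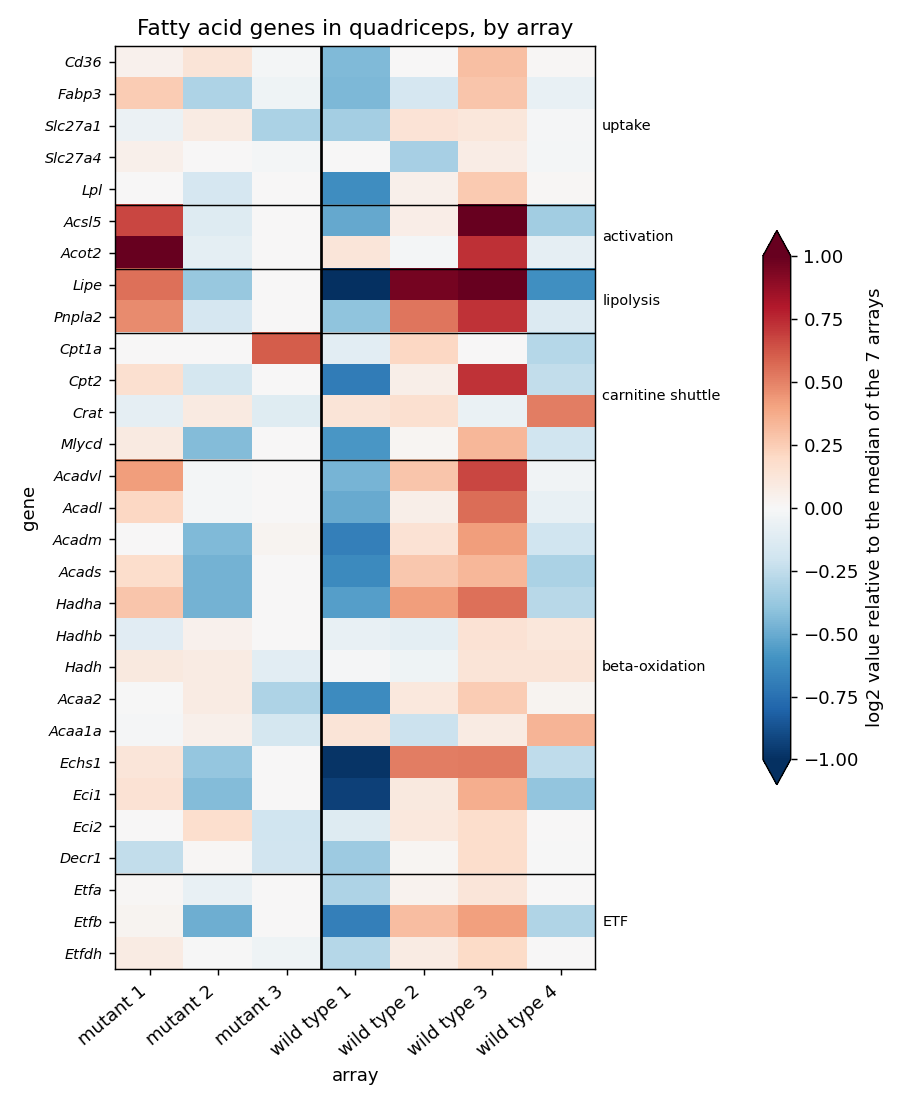
Heat map of the 29 fatty acid genes (rows, by role) on the 7 arrays (columns), as log2 values centred on the probe set's median, with the colour scale ending at -1 and 1. The wild-type replicate 1 column is lowest in 21 genes and the replicate 3 column highest in 23.

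Markers moved with these arrays in part. The adipocyte mean was lowest (-1.08) in wild-type replicate 1 and highest (1.24) in replicate 3, as the members were. The slow fibre mean was low in wild-type replicates 1 and 2, but the median member was low only in replicate 1. The leukocyte mean was lowest in wild-type replicates 1 and 4 (-0.57 and -0.55) and highest in replicate 3 (0.80). The muscle fibre mean was lowest in replicate 3 (-0.51), where the members were highest. Wild-type replicates 1 and 3 were also the oldest (26 months) and the youngest (21 months) of the wild-type mice. Mutant replicate 3, with a median member at 0.00, was 21 months old as well. The part of age, fat cells, other cells, fibre type or RNA quality in the members' values was not tested. Age entered only as a covariate in an alternative fit of the genotype difference.

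**Figure D4:**
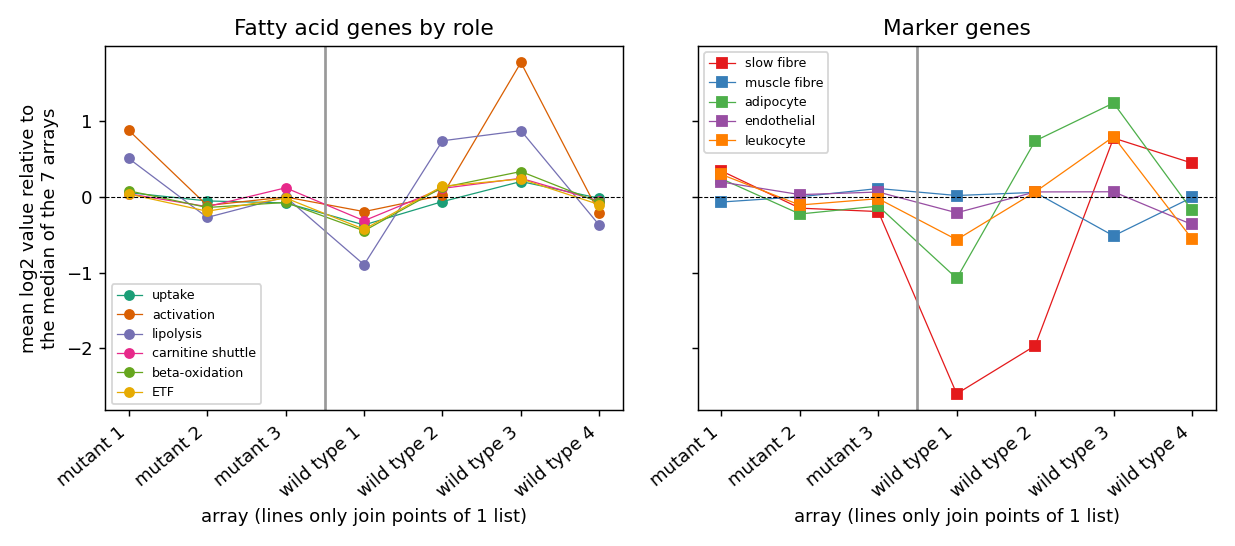
Mean log2 value of the fatty acid genes of each role (left) and of 5 marker lists (right) on each array, centred on the probe set's median, with lines joining the points of 1 list. Lipolysis and adipocyte means both run from their lowest in wild-type replicate 1 to high values in wild-type replicates 2 and 3, whereas the slow fibre mean is low in wild-type replicates 1 and 2.

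The direction of the list followed the arrays that were used. Without wild-type replicate 1, 26 of 29 members had a negative difference with a median of -0.17. Without wild-type replicate 3, 6 of 29 had one and the median was 0.13. Leaving out mutant replicate 2 gave 9 of 29 (median 0.08), as did leaving out wild-type replicate 2 (median 0.04), and leaving out mutant replicate 1 gave 24 (median -0.07). Without wild-type replicates 1 and 2 together, the arrays low in slow fibre genes, 27 were negative with a median of -0.18, and all mutant arrays lay below both wild-type arrays in 4 (Acaa1a, Hadh, Hadhb and Lpl), beside 6.1% of all genes. There 0 members lay above both (5.06% of all genes) and 0 had an unadjusted p under 0.05 (1.54% of all genes). In each of these limma fits 0 members passed the adjusted threshold. With age as a covariate 23 members were negative, at a median of -0.06.

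The 3 arrays that stood apart had a median member difference of the opposite sign to that of the other 4, though not every member turned. Within the other 4 arrays (mutant replicates 1 and 3, wild-type replicates 2 and 3) the median difference was -0.20, and both mutant arrays lay below both wild-type arrays in 14 members, beside 16.9% of all genes, and above both in 0, beside 10.3%. In limma 4 members (Decr1, Echs1, Etfb and Lipe) had an unadjusted p under 0.05, beside 3.38% of all genes, and an adjusted p of 0.97. Echs1 differed by -0.45 there, Hadha and Etfb both by -0.35 and Acaa2 by -0.34. Within the 3 (mutant replicate 2 against wild-type replicates 1 and 4) the median was 0.14, and the mutant array lay above both wild-type arrays in 11 members, beside 37.7% of all genes, and below them in 3, beside 36.7%. With 1 mutant array in this set, these values have no replicate check. Echs1 differed by 0.23 there and Acaa2 by 0.38, whereas Hadha differed by -0.06 and Etfb by 0.01. With the split as a block 24 of 29 members were negative, at a median of -0.07, and 0 passed. The adipocyte markers also differed within the other 4 arrays, from -0.12 to 0.24 in the mutant and from 0.74 to 1.24 in the wild-type arrays, and their part was not tested.

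**Figure D5:**
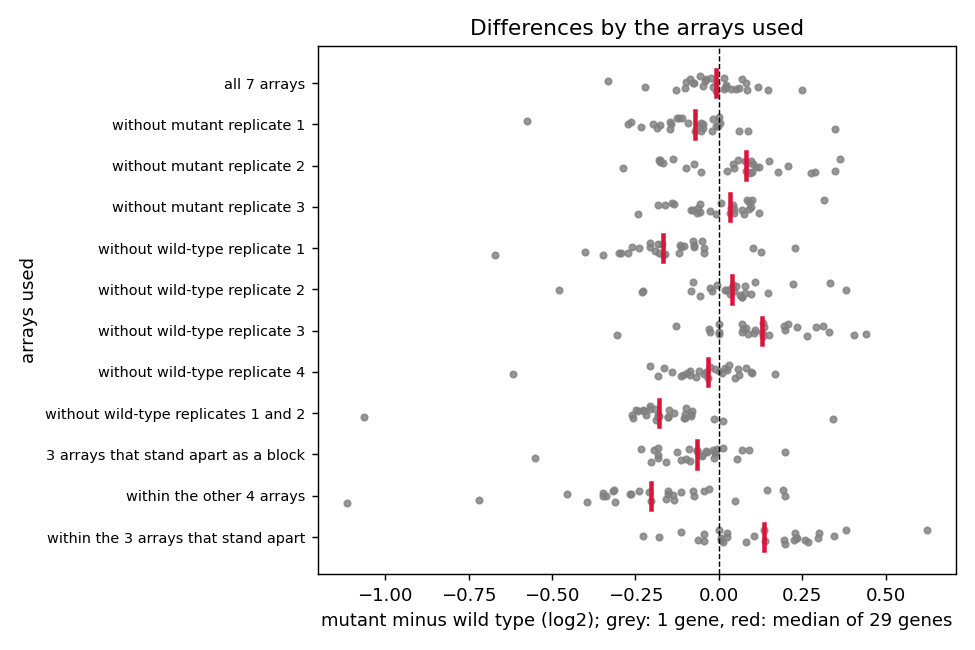
Mutant minus wild-type differences (horizontal axis, log2) of the 29 fatty acid genes, each a grey point, with the median in red, for the arrays named on the vertical axis. The median lies at -0.0094 with all 7 arrays, at -0.17 without wild-type replicate 1 and at 0.13 without wild-type replicate 3.

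The other genes of the pathway also gave no calls. Of 73 listed, 68 were measured, 33 with a positive and 35 with a negative difference around a median of -0.0063, and 0 passed in limma with adjustment over all genes. Of the 68, 1 (Nrip1) had an unadjusted p under 0.05, beside 1.37% of all genes. Wild-type replicate 1 was the lowest array in 29 of the 68 and wild-type replicate 3 the highest in 30. Slc25a20, the carnitine-acylcarnitine carrier between Cpt1 and Cpt2, differed by -0.11 ± 0.11. Acad9, an acyl-CoA dehydrogenase that is also an assembly factor of complex I, differed by 0.32 ± 0.14. Slc27a2, a transport protein, differed by -0.68 ± 0.39, with 1.61 in wild-type replicate 3 and at most 0.25 elsewhere. The 11 measured genes of lipid droplets and their lipolysis had 9 negative differences and a median of -0.21. Among them Plin4 differed by -0.21 ± 0.13 and Plin5, a droplet coat protein of oxidative tissue, by -0.37 ± 0.26. The mean of this list was -0.80 in wild-type replicate 1 and 1.26 in wild-type replicate 3, the arrays at the ends of the adipocyte mean.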

How the data were processed

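Per the labels, RNA of 7 quadriceps samples was labelled and hybridised to 1 single-colour array each. The authors deposited log2 values for 45101 probe sets, with a median of exactly 0 over the arrays in all 45101. GCOS 4.0 is named in the submitters' processing notes, and the summary, scaling and centring steps are not given in the sources used here. In 56.4% of probe sets more than 1 array lay at exactly 0, which narrows the spread of such sets. The log base and a rough level class follow from how finely the deposited numbers are spaced in single precision.

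Names came from the platform annotation, updated by Entrez identifier (34754 of 34958 with 1 symbol matched), and control, unnamed and multiple-symbol sets were left out. For a gene with several probe sets, those in its highest level class were averaged. All genes were fitted with limma 3.58.1 in R 4.3.3 (lmFit, eBayes, no covariate, two-sided, Benjamini-Hochberg, threshold 0.05), and all 34945 named probe sets likewise. The fit was tested on simulated data. Arrays give no read depth, so their number limits the precision. The members, lists and tests were chosen with earlier results of these data known. Values by array are given for the members with the smallest p of each role. Alternatives were other normalization, probe set rule, dim-gene filter, variance trend, age, replicate block, left-out arrays and, added after seeing the data, the 3 arrays that stood apart.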

Additional observations from a re-analysis of the deposited data

How the results depend on the processing

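Under every alternative run, 0 genes and 0 probe sets were called by limma (within the 3 arrays that stood apart 1 mutant array is assumed to vary like the wild-type arrays), and each role's median kept within 1 SD between replicates of its reported value, except that of the carnitine shuttle, which was -0.21 without wild-type replicates 1 and 2. Members with a negative difference numbered 16, from 6 to 26 with 1 array left out, 27 without wild-type replicates 1 and 2, 25 within the 4 arrays and 6 within the 3 that stood apart. Members whose groups did not overlap numbered 0. They numbered from 0 to 1 with 1 array left out, beside 1.28% to 4.63% of all genes above and 1.86% to 6.57% below. With the mean over all probe sets there was 1 (Crat, below), beside 1.03% of all genes above and 1.40% below. Without wild-type replicates 1 and 2 there were 4, all below, beside 6.1%. Within the 4 arrays there were 14, all below, beside 16.9%. Within the 3 there were also 14, 11 above and 3 below, beside 37.7% and 36.7%, a smaller share than over all genes. Crat stayed negative, Cpt1a positive and Acaa1a negative in all 17 fits, the reported one included. These fits reuse the same arrays, and the probe sets of each of these genes were unequal. Samples with the same replicate number did not deviate together (correlations -0.47, -0.29 and 0.14), and no mutant array correlated best with its own number. With the replicate block 0 genes were called and 17 members were negative, at a median of -0.03.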

Other observations

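The 10 regulators of fatty acid oxidation had 8 positive and 2 negative differences, with a median of 0.11 on the log2 scale, and 0 passed in limma over all genes. Nrip1 is a corepressor of nuclear receptors that restrains oxidative genes. It was the 1 of 68 other pathway genes with an unadjusted limma p under 0.05, beside 1.37% of all genes. Of its 6 probe sets only the 1 in its highest level class was used, and the others are not shown here. Nrip1 measured 0.34, 0.00 and 0.30 in mutant and -0.38, 0.13, -0.50 and -0.56 in wild-type muscle. Its groups overlapped through wild-type replicate 2, and it differed by 0.54 ± 0.18 (SE; limma unadjusted p = 0.020, adjusted p = 1.00). Ppargc1b, a coactivator of mitochondrial genes, measured 0.16, 0.00 and 0.21 in mutant and 0.04, -0.10, -0.28 and -0.00 in wild-type muscle, a difference of 0.21 ± 0.11.

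Peroxisomal oxidation, which shortens very long chains, had 10 measured genes, 3 with a positive and 7 with a negative difference and a median of -0.11. Decr2, the peroxisomal dienoyl-CoA reductase, differed by -0.18 ± 0.11 and Abcd3, a peroxisomal membrane transporter, by -0.20 ± 0.13. Wild-type replicate 1 was lowest in 3 of these 10 genes, against 9 of the 13 beta-oxidation members.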
